A study of Mus musculus with 8 samples.

Results

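Peaks of Flag-tagged MBD5 and MBD6 were examined on the RNA of 8 mouse genes of the ubiquitin system with very long coding sequences: *Huwe1*, *Ubr4*, *Herc1*, *Herc2*, *Usp9x*, *Trip12*, *Birc6* and *Mycbp2*. A peak was assigned to a gene when its midpoint lay in the gene body on the same strand. Of 29555 peaks in the 4 cross-linking and immunoprecipitation (CLIP) libraries, 193 were assigned in this way, of which the Flag-MBD5 libraries held 42 and 41 and each Flag-MBD6 library 55. Both proteins are called MBD5 and MBD6 from here on. The series holds 8 samples of mouse embryonic stem (mES) cells in 4 groups of 2, a CLIP group and a digested input group for each protein. The peak lists of the 4 CLIP samples were analysed, and the 4 inputs were not analysed here. All cells were wild type at the outset, carried a stably expressed human *MBD5* or *MBD6* coding sequence behind a 3XFlag tag, and were kept under hygromycin B. The bound protein was therefore human and overexpressed while the RNA was that of the mouse, and whether a line was 1 clone or a pool was not given in the sources used here. A Flag antibody is named in the characteristics of the CLIP samples and in the study's methods, whereas an MBD6 antibody is given in the labels' text on extraction.

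Ubiquitin is a small protein that is attached to other proteins by a cascade of activating, conjugating and ligating enzymes, and chains of it send many proteins to the proteasome. HECT ligases carry the ubiquitin on a cysteine of their own before passing it on, RING ligases bring the conjugating enzyme and the substrate together, and deubiquitinases take the ubiquitin off again. The 8 genes studied encode some of the largest enzymes of this system. Huwe1, Trip12, Herc1 and Herc2 are HECT ligases, Ubr4 recognises N-terminal degradation signals, Birc6 is an inhibitor of apoptosis that can both conjugate and ligate ubiquitin, Mycbp2 is a RING-type ligase known for its part in axons and synapses, and Usp9x is a deubiquitinase.

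The sites were read from the sequence at their 5′ ends, because RNase T1, which trimmed the bound RNA, cleaves after G. The sequences that follow are the 30 nt from the 5′ end of the strongest peak at the site with the highest mean fold enrichment in each gene, taken 5′ to 3′ on the coding strand from GENCODE vM21 transcripts on build mm10. All lie in coding exons, and capitals mark in-frame codons for glutamate or aspartate, the acidic amino acids (GAA, GAG, GAT and GAC).
Huwe1, exon 53, chrX:151906968-151906997, plus strand: GACcctGAGGATGAGGAGGAAcatactcag
Ubr4, exon 75, chr4:139458186-139458215, plus strand: ccttgctgtgcagtgGATcccatcGAGaac
Herc1, exon 22, chr9:66416215-66416244, plus strand: atcctcaaGAAcattcctttacccggacca
Herc2, exon 4, chr7:56072304-56072333, plus strand: GATgctcagagtggaaccaagaaaGAAGAT
Usp9x, exon 8, chrX:13107753-13107782, plus strand: aaaacttaactGATGAAGAGctgaagaaag
Trip12, exon 28, chr1:84743880-84743909, minus strand: tgtacaggctGAAGATGAAagaGAAtctac
Birc6, exon 57, chr17:74654425-74654454, plus strand: aaaaaGATGATaaaGAAaagaagaaccatg
Mycbp2, exon 77, chr14:103127077-103127106, minus strand: attccttcatctgcatcgacgaacgaagac

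A further 2 sites are printed because they had high counts of acidic codons among the sites of the 8 genes, and they were chosen after their values were seen. The *Huwe1* site in exon 54 lies next to the strongest site of the gene and held 8 such codons of 10. The site in *Mycbp2* held 7 of 9.
Huwe1, exon 54, chrX:151907279-151907308, plus strand: GATGATGAAggtGAAGAAggaGATGAAGAT
Mycbp2, exon 64, chr14:103145923-103145952, minus strand: caGAGGAAGATGAGGATGAAGATaataaat

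The peak lists give no read totals, so the reads at each summit and the totals behind each library were solved from the deposited fold enrichments and p-values. The estimated totals were 478790 and 500143 reads for MBD5 and 983918 and 1111742 for MBD6, a ratio of 2.14. At the 30 sites of the 8 genes with a peak in both MBD5 libraries the replicates gave a chi-square per degree of freedom of 0.680, and at the 46 sites with a peak in both MBD6 libraries 0.603. Counts that vary only by Poisson sampling have an expected value of 1. The replicates thus differed by less than sampling noise. Each protein was counted as 1 sample, values are printed per library with no SD, and no test between the proteins was made. Intervals are 95% intervals that cover counting error only, and the difference in depth and the difference between the proteins cannot be told apart in counts of peaks.

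All 8 genes had at least 1 peak in 3 of the 4 libraries, and 7 of 8 did in the first MBD5 library, where *Herc1* had none. Over all 21951 protein-coding genes, 10.1% and 9.9% had a peak in the MBD5 libraries and 16.2% and 16.5% in the MBD6 libraries. Long transcripts offer more room for peaks, so the 8 genes were also read against the 450 other genes with a longest coding sequence of 6000 nt or more. A reproducible region, where peaks of both replicates overlap and are merged, was present in 7 of the 8 genes for MBD5 and in 8 of 8 for MBD6. Among the other long genes the shares were 29.6% for MBD5 and 41.1% for MBD6, and among all protein-coding genes 7.8% and 13.8%. These comparison genes were not matched on RNA level, which the peak lists do not give. Beyond the cutoff of 6000 nt they were not matched on length either, and all of the 8 genes but *Usp9x* and *Trip12* have coding sequences of 13134 nt or more. The 8 genes were chosen with earlier results of these data known, so their shares are not independent of that choice.

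Together the 8 coding sequences measure 100.38 kb, and they held 0.418 and 0.408 peaks per kb in the MBD5 libraries and 0.548 peaks per kb in each MBD6 library. The other long genes, pooled in the same way, had 0.189 and 0.191 peaks per kb for MBD5 and 0.282 and 0.290 for MBD6. Most of those genes had no peak at all, and the 187 of them with a reproducible region of either protein had a median of 0.302 peaks per kb for MBD5 and 0.530 for MBD6. The medians of the 8 genes were 0.219 and 0.483. The giant ligases therefore lay inside the range of other long genes that carried regions, with a wide spread among themselves.

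**Figure D1:**
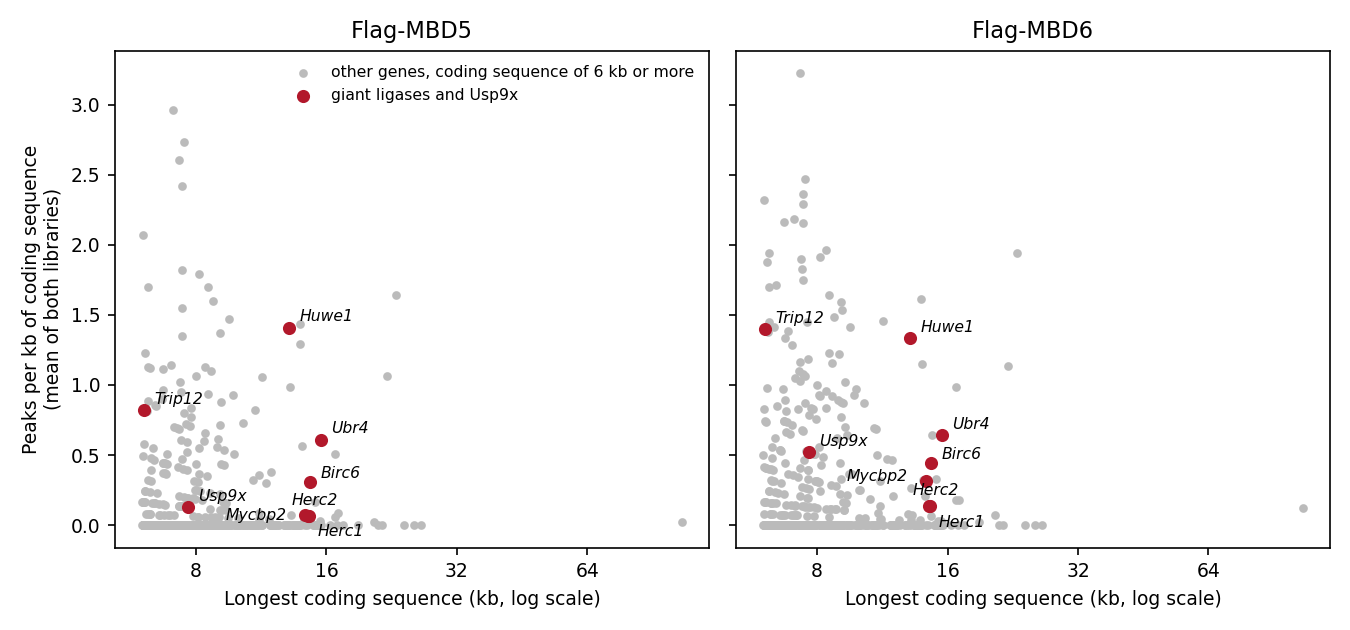
Peaks per kb of coding sequence (vertical axis, mean of both libraries) against the length of the longest coding sequence in kb (log scale) for Flag-MBD5 (left) and Flag-MBD6 (right). Red points are the 7 giant ligase genes and Usp9x. Grey points are the 450 other genes with a coding sequence of 6000 nt or more. For Flag-MBD5, Huwe1 stands above 96.9% of the grey points and above 92.5% of those with a reproducible region of either protein. Herc1 and Herc2 lie near 0.

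*Huwe1*, whose ligase acts on MYC family proteins, p53 and MCL1, had the most peaks of the 8 genes in every library. The gene spans chrX:151800807-151935417 on the plus strand, with 83 exons and a coding sequence of 13134 nt in the transcript used. It had 19 and 18 peaks in the MBD5 libraries and 18 and 17 in the MBD6 libraries, so the libraries of the proteins overlapped in count despite the difference in depth. Among all protein-coding genes it ranked 8 and 11 by peak count in the MBD5 libraries and 9 and 9 in the MBD6 libraries. Its density was 1.45 and 1.37 peaks per kb for MBD5 and 1.37 and 1.29 for MBD6, above that of 96.9% and 92.9% of the other long genes by the mean of both libraries. Among the 187 of those genes with a reproducible region it was above 92.5% and 82.9%. It carried 15 MBD5 regions and 14 MBD6 regions, of which 11 overlapped.

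*Trip12*, a HECT ligase of the ubiquitin fusion degradation pathway, has the shortest coding sequence of the 8 genes, with 6075 nt in 41 exons at chr1:84721189-84840516 on the minus strand. It had 5 and 5 peaks for MBD5 and 8 and 9 for MBD6, so the MBD6 libraries were both higher. Per kb this came to 0.823 in each MBD5 library and to 1.32 and 1.48 in the MBD6 libraries. The latter values overlapped those of *Huwe1*, and the order of these genes was thus not resolved for MBD6. All 4 MBD5 regions of *Trip12* were among its 8 MBD6 regions.

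*Ubr4*, which has the longest coding sequence (15540 nt, 106 exons, chr4:139352609-139489588, plus strand), had 10 and 9 peaks for MBD5 and 9 and 11 for MBD6. The libraries overlapped as they did for *Huwe1*, but the replicates shared fewer positions. Only 4 MBD5 regions and 7 MBD6 regions were reproducible, of which 3 overlapped. Of its 20 sites, counted after merging the peaks of all 4 libraries, 11 had a peak in 1 library only, against 2 of 23 sites of *Huwe1* and 30.8% of all 12074 sites of the series. The density of *Ubr4* was 0.644 and 0.579 peaks per kb for MBD5 and 0.579 and 0.708 for MBD6. Among the peaks counted, that of the second MBD5 library at chr4:139360580-139360729 lay in an intron of *Ubr4* and in the coding sequence of *Emc1* on the same strand, so it cannot be told from which RNA it came.

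*Birc6*, the inhibitor of apoptosis (chr17:74528295-74703356, plus strand, coding sequence of 14646 nt in 73 exons), had 5 and 4 peaks for MBD5 and 7 and 6 for MBD6. Its densities were 0.341 and 0.273 peaks per kb for MBD5 and 0.478 and 0.410 for MBD6. The 4 MBD5 regions all overlapped one of its 6 MBD6 regions. *Usp9x* (chrX:13071498-13173328, plus strand, 7662 nt in 45 exons) had 1 peak in each MBD5 library and 4 in each MBD6 library, or 0.131 and 0.522 peaks per kb. Of the 4 peaks in each MBD6 library, 2 began in introns, so 0.522 also counts peaks outside the coding sequence. Reads that match several places equally well were placed at 1 of them by the authors, so reads shared with its Y-linked paralog *Usp9y* would be uncertain. *Mycbp2* (chr14:103113411-103346814, minus strand, 14238 nt in 85 exons) had 1 and 1 peaks for MBD5 and 5 and 4 for MBD6.

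The HERC genes, whose products join a HECT domain to repeats like those of the nucleotide exchange factor RCC1, had the fewest peaks. *Herc1* (chr9:66350450-66508775, plus strand, 14577 nt in 78 exons) had 0 and 2 peaks for MBD5 and 2 and 2 for MBD6. *Herc2*, known for its part in the response to DNA damage (chr7:56050196-56231800, plus strand, 14508 nt in 93 exons), had 1 and 1 peaks for MBD5 and 2 and 2 for MBD6. Their mean densities were 0.0686 and 0.0689 peaks per kb for MBD5 and 0.137 and 0.138 for MBD6, so neither gene stood above the other, and *Mycbp2* with 0.0702 was level with them for MBD5 but not for MBD6, where it had 0.316.

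**Figure D2:**
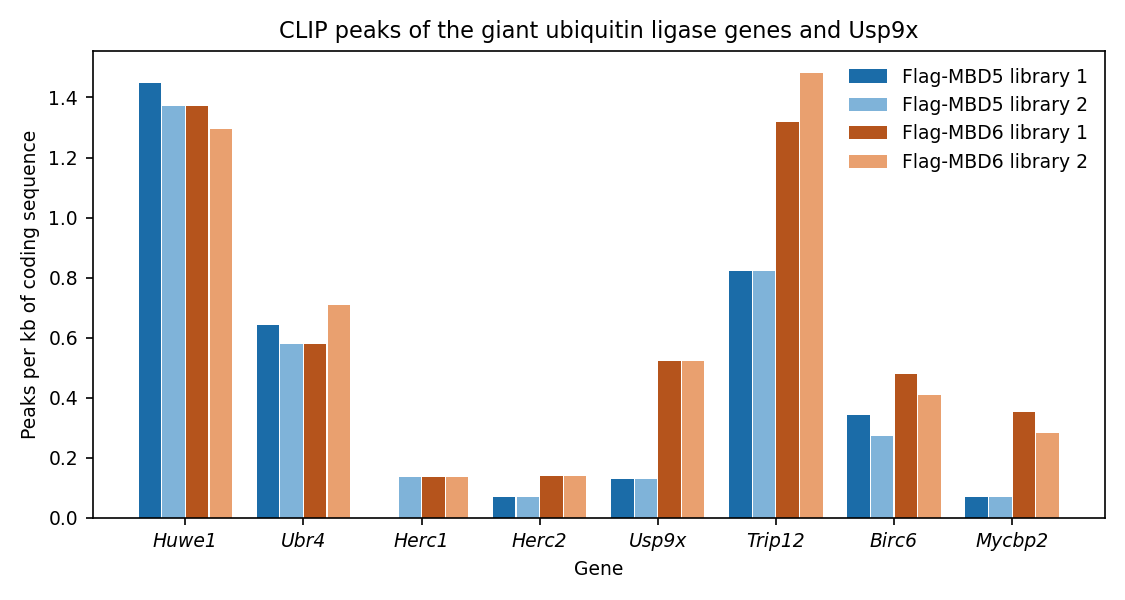
Peaks per kb of coding sequence (vertical axis) for the 8 genes in each of the 4 CLIP libraries (bars, 1 library each). Huwe1 and Ubr4 have like values for both proteins, whereas Herc2, Usp9x, Trip12, Birc6 and Mycbp2 are higher in both Flag-MBD6 libraries. The Flag-MBD6 bars of Usp9x include peaks that began in introns. Herc1 has no bar in the first Flag-MBD5 library because it had 0 peaks there.

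By counts alone, the ratio of peaks between the proteins varied among the genes. It rested on few peaks in most of them, and the variation was not tested. *Huwe1* and *Ubr4* together had a mean of 28 peaks for MBD5 and 27.5 for MBD6, a ratio of 0.982. The other 6 genes together had 13.5 and 27.5, a ratio of 2.04, while all peaks of the series gave 1.75. The grouping of *Huwe1* with *Ubr4* was made after the values were seen. With the same number of peaks taken from each library, the best first, the MBD6 libraries had a mean of 32 peaks in the 8 genes in place of 55, against 41.5 for MBD5, so the direction of the difference turned.

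Of the 30 MBD5 regions in the 8 genes, 25 overlapped an MBD6 region (83.3%, 95% Wilson interval 66.4% to 92.7%), beside 90% of all 4019 MBD5 regions. Among the 46 regions of MBD6, 25 met one of MBD5 (54.3%, 40.2% to 67.8%), beside 47.7% of all 7484 MBD6 regions. Both intervals covered the share of the whole series. In the 6 genes other than *Huwe1* and *Ubr4*, all 11 MBD5 regions overlapped an MBD6 region (interval 74.1% to 100%). All 5 MBD5 regions without an overlap lay in *Huwe1* and *Ubr4*, where the shared share was 73.7% (51.2% to 88.2%). This grouping was made after the peak counts were seen, so these shares are not independent of it.

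The merged peaks formed 74 sites, of which 25 had a peak in all 4 libraries (29.5% of all sites of the series did). For 43 sites there was a peak for both proteins, for 21 only in a MBD6 library and for 10 only in a MBD5 library. Over all sites, 45.4% had no peak in either MBD5 library and 7.33% none in either MBD6 library. Of the 10 sites with MBD5 peaks only, 7 were in *Ubr4*, 2 in *Huwe1* and 1 in *Birc6*, and 9 of them rested on 1 library. Sites in all 4 libraries were the strongest, with a median of 35 reads at the best summit (range 19 to 96), against 19 reads for sites in 2 or 3 libraries (11 to 46) and 11 reads for sites in 1 library (8 to 17). Many of the sites found in 1 library were thus near the smallest number of reads that gave a peak.

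Among the sites with peaks for MBD6 only, the strongest was in exon 20 of *Herc2* at chr7:56114703-56114908, with fold enrichments of 20.5 and 23.1 on 32 and 38 reads. The next was in exon 15 of *Mycbp2* at chr14:103282620-103282781, with 18.4 and 16.3 on 27 and 25 reads, and it held 5 acidic codons of 9. Both sites thus had a peak in each MBD6 library, well above the smallest summits called. The sole site with a peak in both MBD5 libraries and in neither MBD6 library lay in exon 62 of *Huwe1* at chrX:151916101-151916253, with 5.44 and 6.56 on 11 and 14 reads, among the weakest of that gene.

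The sites of *Huwe1* ran along most of the coding sequence, from 432 to 12297 nt after the start codon, with 7 of the 23 between 25% and 50% of its length and 9 between 50% and 75%. In *Ubr4* the sites fell into a group of 6 in the first 25% of the length and a group of 11 beyond 50%, with 1 between them. *Birc6* had 3 sites in the first 25%, none between 25% and 75% and 5 beyond, and *Mycbp2* likewise had 2, none and 3. Both sites of *Herc2* lay in the first 25%. The widest site of the 8 genes, in *Trip12* at chr1:84793521-84794292, measured 772 bp and covered most of exon 3, which has 803 nt.

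**Figure D3:**
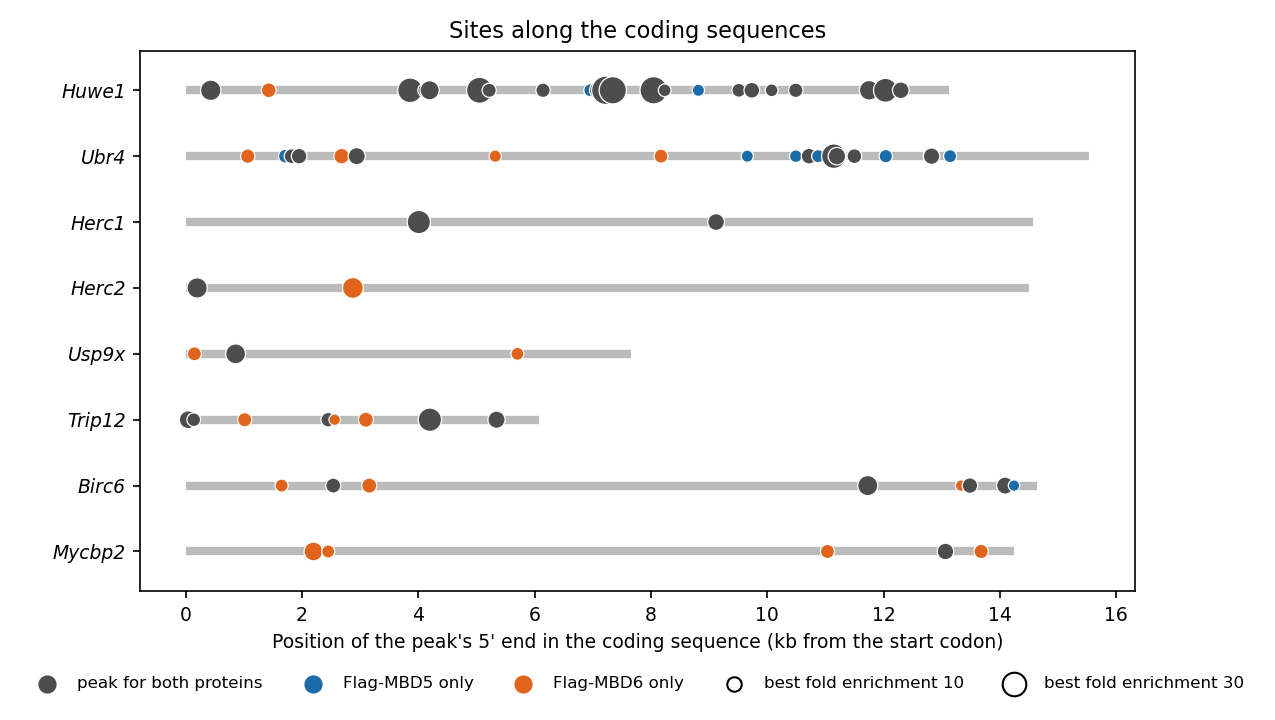
Position of each site's 5′ end in kb from the start codon (horizontal axis) on the coding sequences of the 8 genes (grey bars, drawn to scale), for the 69 of 74 sites whose 5′ end lies in a coding exon of the transcript used. Grey circles had peaks for both proteins, blue circles for Flag-MBD5 only and orange circles for Flag-MBD6 only, and the area grows with the best fold enrichment; the largest circles are those of Huwe1 in exons 53, 54 and 58.

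The strongest site of the 8 genes was that of *Huwe1* in exon 53, with fold enrichments over the local background of 40.0 and 35.8 in the MBD5 libraries and 36.0 and 44.4 in the MBD6 libraries. Its summits held 51, 46, 57 and 74 reads. The site in exon 54 had fold enrichments of 40.8, 33.6, 36.0 and 35.8, so by this measure the libraries of the proteins overlapped on this acidic stretch, printed above. Scaled by depth, the reads at both sites were lower for MBD6, with ratios of 0.631 (0.436 to 0.952) and 0.618 (0.421 to 0.909). Over all sites of the series with a peak in all 4 libraries, the median ratio was 0.792. The *Huwe1* site with the most reads, in exon 40 at chrX:151891069-151891273, had 53, 63, 85 and 96 reads and held no acidic codon.

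In *Ubr4* the strongest site had fold enrichments of 15.0 and 14.0 for MBD5 and 22.2 and 32.5 for MBD6. The best site of *Trip12* had 17.0, 19.7, 29.4 and 17.9, so the proteins overlapped there. That of *Birc6* had 9.94 and 11.4 for MBD5 and 17.4 and 21.3 for MBD6, and that of *Usp9x* had 8.47 and 9.15 against 13.6 and 20.7. *Herc2* had 17.1 and 8.39 for MBD5 at its best site and 21.7 and 20.1 for MBD6. *Mycbp2* had 10.4 and 7.11 against 12.5 and 13.8. The best site of *Herc1* had no peak in the first MBD5 library, 6.86 in the second, and 29.2 and 27.2 in the MBD6 libraries, on 8, 46 and 45 reads.

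Reads scaled by the estimated totals gave another direction between the proteins than the fold enrichment did. At the 25 sites with a peak in all 4 libraries, the depth-scaled summit reads were lower for MBD6 at 20 sites and higher at 5, with a median log2 ratio of MBD6 to MBD5 of -0.19. Over all 3566 such sites of the series the median was -0.34. By the deposited fold enrichment the median was 0.36 at the 25 sites and 0.41 at all sites, that is higher for MBD6. The 8 genes thus lay near the general level by either measure, and the direction between the proteins depended on the scaling. Requiring a peak in all 4 libraries left out the 21 sites with peaks for MBD6 only and the 10 with peaks for MBD5 only. The MBD5 libraries were the shallower ones, so this choice bears on the direction, and its effect was not tested. Summed over sites in all 4 libraries, *Huwe1* had 353 and 353 reads for MBD5 and 505 and 573 for MBD6, a depth-scaled ratio of 0.713 (exact binomial interval 0.623 to 0.818). *Ubr4* had a ratio of 0.630 (0.445 to 0.884), *Trip12* 0.778 (0.596 to 1.01), *Birc6* 1.02 (0.714 to 1.51), *Usp9x* 1.33 (0.667 to 3.21), *Herc2* 0.948 (0.533 to 1.93) and *Mycbp2* 0.911 (0.417 to 2.23). The median ratio over all 3566 sites was 0.792, inside each of these intervals. The intervals leave out the error of the estimated totals.

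At 4 of the 25 sites (16%) the depth-scaled reads were at least 2-fold higher for MBD5, beside 9.93% of all such sites, and at none were they 2-fold higher for MBD6, beside 0.869%. Sites with peaks for 1 protein only could not enter either count. The 4 sites lay in *Huwe1* and *Ubr4*, and their first 30 nt are printed because they passed 2-fold. They held 0 or 1 acidic codon each, as did the best sites of *Herc1* and *Mycbp2* printed earlier. Of the 69 sites with a 5′ end in coding sequence, 18 held none, and the 25 sites had a median of 2. Whether few acidic codons go with the 2-fold call was not tested.
Huwe1, exon 67, chrX:151920029-151920058, plus strand: accactactgccactgcccccacgcccaca
Huwe1, exon 75, chrX:151928261-151928290, plus strand: aacctcctccactctcccccgcccccttaa
Ubr4, exon 73, chr4:139455547-139455576, plus strand: aaaattgggGACctgaagcgaaccaagatg
Ubr4, exon 76, chr4:139458804-139458833, plus strand: ttccaacatcaacacacttctgGACaaagc

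The exon 67 site of *Huwe1* had 36 and 34 reads for MBD5 and 39 and 28 for the deeper MBD6 libraries, a depth-scaled ratio of 0.447 (0.275 to 0.749). The exon 75 site had 25, 19, 15 and 19 reads and a ratio of 0.361 (0.180 to 0.712). In *Ubr4* the exon 73 site had 16, 19, 16 and 18 reads (0.454, 0.214 to 0.907) and the exon 76 site 21, 16, 13 and 22 reads (0.442, 0.229 to 0.952). By the ratio of the mean deposited fold enrichments the same 4 sites had 0.869, 0.677, 0.689 and 0.713, so each kept its direction but none passed 2-fold.

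**Figure D4:**
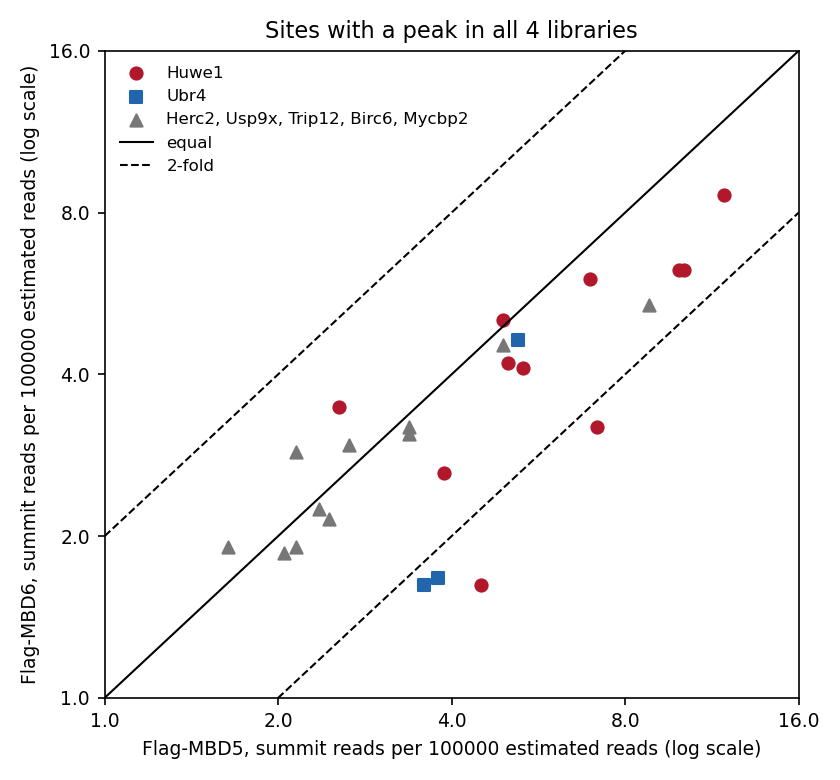
Reads at the summit per 100000 estimated reads of the library, mean of both libraries, for Flag-MBD5 (horizontal) and Flag-MBD6 (vertical), on log scales, at the 25 sites with a peak in all 4 libraries. The solid line marks equal values and the dashed lines 2-fold; 4 points of Huwe1 (circles) and Ubr4 (squares) lie beyond the lower dashed line and none beyond the upper one.

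The sites lay in coding sequence. At a position 15 nt from the 5′ end of the peak, 100% and 97.6% of the MBD5 peaks in the 8 genes and 96.4% of the peaks of each MBD6 library were in coding exons, and none of the 193 peaks were in a UTR. Among all peaks the coding shares ran from 78.1% to 79.4%, but all peaks include those of non-coding genes and those between genes, which the assignment to 8 coding genes leaves out. Reads were extended to 150 bp without splicing, and at the midpoint of the peak the shares were 59.5%, 58.5%, 58.2% and 61.8%. All peaks had 54.0%, 53.2%, 54.4% and 54.2% at the midpoint, each within the counting interval of the 8 genes. Of the 74 sites, 25 began in coding sequence and had their midpoint in an intron. The share thus depended on the position used. Only 3 sites were intronic at 15 nt. These were the *Ubr4* site within *Emc1* and a pair in *Usp9x*, at chrX:13073112-13073274, with 30 and 22 reads, and at chrX:13143601-13143750, with 9 and 13 reads, both with peaks in the MBD6 libraries only. There were 0 peaks on the antisense strand of the 8 genes.

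At sites with peaks in both libraries of a pair, the 5′ ends lay close together, in replicates and between the proteins alike. Between the MBD5 libraries the median distance was 5 nt and 22 of 30 sites were within 10 nt, and between the MBD6 libraries it was 3 nt with 39 of 46. For pairs of an MBD5 and an MBD6 library the medians ran from 3 to 8 nt. G stood just before the 5′ end in 85.7% (72.2% to 93.3%) and 74.4% (58.9% to 85.4%) of the MBD5 peaks and in 80.4% (67.5% to 89.0%) and 76.0% (62.6% to 85.7%) of the MBD6 peaks. These shares rest on the 42, 39, 51 and 50 peaks with a 5′ end in the coding transcript used. G makes up 24.9% of the 8 coding sequences, and the 4279, 4301, 7348 and 7645 such peaks of the series gave 83.3%, 82.8%, 74.0% and 73.2%. C came next in the 8 genes, with 11.9%, 17.9%, 17.6% and 20.0%. The intervals of the 8 genes covered the shares of these peaks of the series in each library.

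The first 30 nt of the peaks were rich in A and poor in T. A made up 35.5% to 38.6% of them across the libraries, against 27.0% of the coding sequences, and T 13.3% to 15.8%, against 24.5%. Codons for glutamate or aspartate made up 21.7% and 25.3% of the codons in these windows for MBD5 and 24.2% and 20.5% for MBD6. In the whole coding sequences they made up 12.0%, and in all 24978 windows that follow a G there 12.2%. The same was true of the series, where the windows of all peaks with a 5′ end in the coding transcript used held 22.8% to 23.2% acidic codons. The ligase genes thus lay near the general level.

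Counting each of 69 sites with a 5′ end in coding sequence once, 144 of 646 codons were acidic (22.3%), 26 sites held 3 or more and 18 held none. The share was highest in *Mycbp2*, with 17 of 46 codons (37.0%), against 11.6% in its whole coding sequence. Its sites in exons 64 and 15, with MBD6 peaks only, held 7 and 5 of these codons. Its strongest site, the only one with peaks for both proteins, held none. *Huwe1* had 55 of 215 (25.6%, against 13.9%), *Birc6* 19 of 75 (25.3%, against 10.9%) and *Trip12* 14 of 74 (18.9%, against 11.5%). *Ubr4* had 26 of 170 (15.3%, against 11.7%), nearer to its coding sequence than these. *Herc1*, *Herc2* and *Usp9x* rested on 19, 19 and 28 codons.

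**Figure D5:**
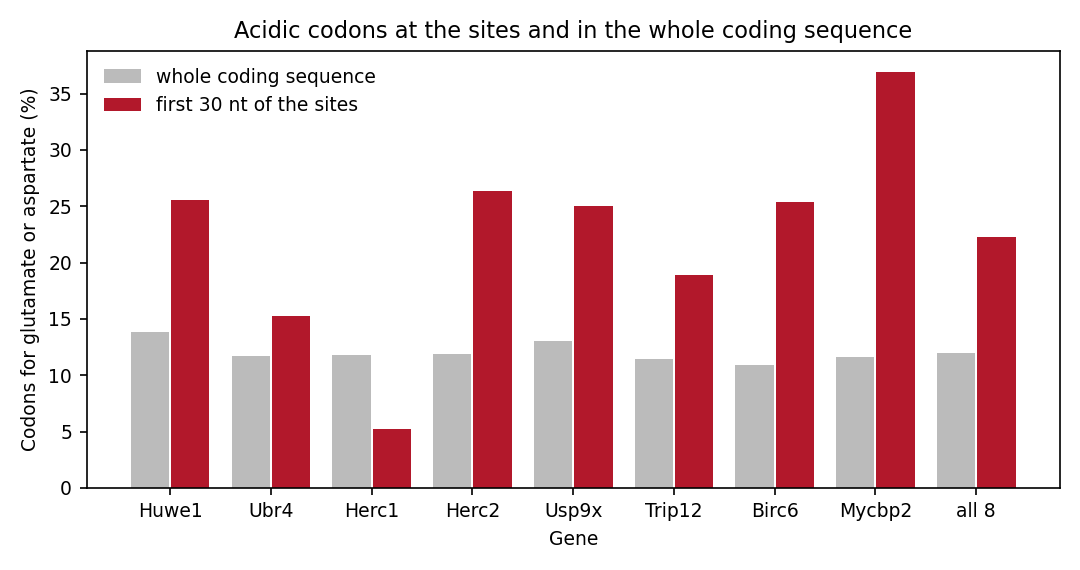
Codons for glutamate or aspartate as a percentage of all codons (vertical axis) in the first 30 nt of the sites (red bars) and in the whole coding sequence (grey bars) for the 8 genes and for all of them together. The site windows are higher in 7 genes, by the least in Ubr4, and lower in Herc1, which has 19 codons from 2 sites.

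Regions were also common in the rest of the ubiquitin system. Of 160 genes in lists of ligases, deubiquitinases, activating enzymes, cullins, proteasome subunits and known partners, 40 had an MBD5 region and 79 an MBD6 region, and 80 (50%) had either, beside 14.1% of all protein-coding genes. By list, a region of either protein was found in 8 of 23 other HECT ligases, 4 of 6 other UBR proteins and their partner, 5 of 8 activating enzymes, 5 of 10 cullins and their exchange factor, 12 of 22 RING and related ligases, 21 of 36 ubiquitin-specific proteases, 15 of 31 proteasome subunits, 5 of 7 ubiquitin and segregase genes, and 5 of 17 partners and substrates of the giant ligases. Regions were thus found in every class of enzyme listed. The lists were chosen with earlier results of these data known, and they were not matched on RNA level.

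Among the listed genes with many regions, *Nedd4*, a HECT ligase of membrane proteins, had 7, 8, 7 and 9 peaks in a coding sequence of 2661 nt, or 2.82 and 3.01 peaks per kb by protein, more than any of the giant ligases. *Usp48* had 4, 4, 7 and 10 peaks, *Usp8*, which acts in endosomal sorting, 7, 5, 7 and 6, and *Cul4b*, a scaffold of cullin ligases, 1, 2, 6 and 6. As a comparison by length, 13 of 15 giant cytoskeletal genes had a region. The 3 named by the number of regions were *Dst* with 37, 39, 44 and 46 peaks, *Myh9* with 21, 23, 21 and 19 and *Dync1h1* with 20, 20, 21 and 24, while *Macf1*, which tied with *Dync1h1* at 20 MBD6 regions, had 25, 22, 24 and 26. *Dync1h1*, a dynein heavy chain gene with a coding sequence of 13932 nt, had 1.44 peaks per kb for MBD5 and 1.61 for MBD6, close to *Huwe1* at like length.

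Among the long genes whose 4 densities lay nearest to the medians of the 8 genes were *Trrap*, which encodes a scaffold of histone acetyltransferase complexes, and *Cabin1*. Their Euclidean distances over the 4 libraries were 0.147 and 0.148 peaks per kb. *Trrap* had 3, 4, 6 and 5 peaks, and *Cabin1* 1, 1, 4 and 3.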

How the data were processed

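CLIP–seq of Flag-MBD5 and Flag-MBD6 in mES cells gave 4 peak lists, 2 per protein. As the study's methods describe, the authors trimmed and filtered the reads, collapsed identical ones, kept those over 15 nt, removed ribosomal RNA, aligned them to mm10 with Bowtie 1.0.0 (3 mismatches, at most 10 places, 1 reported), split them by strand with SAMtools 1.16.1 and called peaks per library and strand with MACS2 at q under 0.01, extending reads to 150 bp. The deposited values are the score, the fold enrichment (a ratio to the local background), the −log10 p-value and −log10 q-value, and the summit offset as another column. MACS2 kept a limited number of reads per position, which caps strong summits.

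Reads and background rates were solved from fold and −log10 p (100% of peaks), and library totals from the lowest rate and the genome size of 130000000 bp. Overlap meant 1 bp on the same strand. Peaks per kb used the longest annotated coding sequence (GENCODE vM21). Classes used the position 15 nt from the 5′ end. Sequences came from GENCODE transcripts. The scripts (Python 3.11.15, pandas 2.3.3, scipy 1.17.1) were tested on simulated data. The sites named were the best by mean fold in each gene and those past 2-fold between the proteins. From the ubiquitin lists the 5 genes with the most regions were named, from the cytoskeletal list 3, and the 3 long genes nearest by density. The genes, lists and rules were chosen with earlier results of these data known. A setting without peaks shared with another gene was added after seeing the data. The RNA level of the genes was not analysed here. Some items that these rules select are not reported here.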

Additional observations from a re-analysis of the deposited data

How the results depend on the processing

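Leaving out a library changed 2 of 44 values by more than the replicate spread or counting interval, and the other settings 14 of 63, so 42 and 49 stayed within it. Some of these values could not change, so the counts are no measure of robustness. Leaving out a library of a protein leaves the peak values of the other protein as they were. Cutoffs of q under 0.001 and of a fold enrichment of at least 4 removed no peak in the 8 genes. When the lists were cut to the same length, MBD6 had 32 peaks, 0.319 peaks per kb, 27 regions and 74.1% of regions shared. Merging the peaks of either replicate gave 53 MBD5 regions. Counting a peak of either library of the other protein gave shared shares of 96.7% for MBD5 and 76.1% for MBD6. The coding share was 59.0% for MBD5 and 60% for MBD6 by midpoint, and 73.5% and 76.4% by summit. The median log2 ratio of summit reads was 0.15 with depth from the median ratio of all sites and 0.36 with the deposited fold enrichment, so its sign depended on the scaling. Without each library in turn, the MBD6 shared share ran from 49.1% to 69.6%, the highest without the first Flag-MBD5 library, the MBD5 shared share from 66.7% to 90.0%, the MBD5 coding share from 97.6% to 100%, the share of G before the 5′ end from 74.4% to 85.7% for MBD5 and from 76.0% to 80.4% for MBD6, and the log2 ratio from -0.36 to -0.24. No paired analysis was possible because no test was made between the groups, in which each protein counted as 1 sample. Summits of 8 to 17 reads at sites in 1 library limit what can be said of sites missing from the others.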

Other observations

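The composition of the first 30 nt differed with the libraries in which a site had a peak, and this comparison was made after the printed sequences had been seen. In the 8 genes, C made up 28.5% of the letters at 9 sites with Flag-MBD5 peaks only, 25.7% at 42 sites with peaks for both proteins and 19.6% at 18 sites with Flag-MBD6 peaks only, while A made up 30.0%, 35.3% and 41.1%. Acidic codons made up 16 of 85 codons (18.8%), 82 of 393 (20.9%) and 46 of 168 (27.4%), and these few codons do not set the first share apart from the second. Over all sites of the series with a 5′ end in a coding transcript, C made up 29.2% at 719 sites with Flag-MBD5 peaks only, 21.2% at 4475 sites with both and 20.1% at 4455 sites with Flag-MBD6 peaks only, and acidic codons 14.8%, 22.8% and 21.9%. The sites with Flag-MBD5 peaks only had the highest share of C in both sets. In the 8 genes most of them were in *Ubr4*, whose coding sequence has the highest share of C of the 8 (27.9%). The sites in the 8 genes are part of the series, 9 of the 10 sites with Flag-MBD5 peaks only rest on 1 library, and depth differed between the proteins, whose part in the difference was not tested.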
